A study of Rattus norvegicus with 16 samples.

Results

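The transcripts of 10 rat genes of the AP-1 and immediate early transcription factor families were followed in kidney cortex after repeated iron injury: Fos, Fosb, Fosl1, Fosl2, Jun, Junb, Jund, Egr1, Myc and Klf6. Their probes were taken by the gene name printed on the array, which gave 17 of the 45598 probes. Of the 10 members, 7 had a probe that was measured well enough to be tested, and they are 7 of 16058 genes tested. The animals were male Jcl:SD rats, either wild type or heterozygous for BRCA1 (BRCA1+/-), and each genotype had 2 control samples labelled as normal kidney, 3 samples from rats given Fe-NTA for 1 week and 3 from rats given it for 3 weeks. Fe-NTA is iron held in solution by the chelator nitrilotriacetate, and it damages the proximal tubule through oxidation. Treatment began at 4 weeks of age, with 2 intraperitoneal doses of 5 mg iron/kg and 3 of 7 mg iron/kg in the first week. The 3-week groups then received 10 mg iron/kg in 5 injections per week for 2 weeks. They therefore differed from the 1-week groups in length of treatment, dose, number of injections and age at sampling. These cannot be told apart. Tissue was taken 48 h after the final injection, so that each value describes RNA left at that time and not the first hours after an injection. The heterozygous controls carry the same BRCA1 genotype as the treated animals, and neither the kind of BRCA1 allele nor the age of the controls at sampling was given in the sources used here. RNA of each sample was measured on its own one-colour array. Whether 2 arrays of a group came from different animals is not stated for each array, so p-values measure the spread between these samples.

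AP-1 is a dimer of a Jun protein (Jun, Junb, Jund) with a Fos protein (Fos, Fosb, Fosl1, Fosl2) or a related basic leucine zipper protein, and it binds promoters and enhancers of genes for matrix remodelling, inflammation and growth. Fos, Fosb, Junb and Egr1 are classical immediate early genes, which are transcribed within minutes of a stimulus without new protein synthesis and shut off soon after, whereas Fosl1, Fosl2 and Jund transcripts are usually longer lived. Myc drives ribosome production and cell cycle entry, Egr1 is a zinc finger factor induced by growth factors and injury, and Klf6 is a Krüppel-like zinc finger factor induced early in injured kidney epithelium.

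Values below are scaled log2 signals, the log2 of the processed spot signal minus the 75th percentile of its array, so 0 marks the 75th percentile probe and 1 unit is a doubling. They can be compared between arrays for a given probe and not between probes. A difference is given as log2 ± SE with p adjusted by Benjamini-Hochberg over all genes, from limma, and called at an adjusted p under 0.05. Where no probe of a gene was well above background on any control array, a called change is written as a lower bound, the treated mean against the higher of the control signal and that array's detection limit, and no fold is given where that bound is under 1. The arrays had 32.8 to 60.5% of probes well above background and no saturated spots. The detection limit, an array's lowest signal well above background, was -1.4 and -1.87 in the wild-type controls. In the BRCA1+/- controls it was -3.32 and -2.35. Whether a dim gene counts as well above background in the controls thus cannot be compared between the genotypes. Replicates of a group correlated at 0.964 to 0.981 over genes, except in wild type at 1 week, where the lowest correlation was 0.905.

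The probes that the comparisons of family members turn on are shown here because members of a family resemble each other and probes of a gene can differ. Of all pairs of member probes from different genes, those of Jun and Junb were the most alike, and aligned without gaps they share 29 of 47 bases, or 61.7%. Capitals mark the shared bases.
Jun: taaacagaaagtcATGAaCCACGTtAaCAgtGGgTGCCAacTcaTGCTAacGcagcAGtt
Junb: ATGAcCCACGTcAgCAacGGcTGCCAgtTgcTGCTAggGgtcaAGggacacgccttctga
Fosl2 had 3 probes on the array, of which the last 2 below have an identical sequence although the array names them separately; the first is another stretch of the transcript.
Fosl2, A_44_P1152997: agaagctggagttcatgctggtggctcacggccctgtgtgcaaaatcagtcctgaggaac
Fosl2, A_44_P1082224: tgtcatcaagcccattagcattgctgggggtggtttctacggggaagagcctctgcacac
Fosl2, A_64_P065063: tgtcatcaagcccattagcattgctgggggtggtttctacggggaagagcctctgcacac

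The 250 bases before the transcription start were available from RefSeq (assembly GRCr8) for 7 of the 10 members. They are shown for 4 of the members whose transcripts were measured, with matches to motifs in capitals. Motifs searched on both strands were the AP-1 site TGANTCA, the cyclic AMP response element TGACGTCA, the E-box CACGTG, the EGR site GCGGGGGCG, the TATA box TATAAA, the CCAAT box and the CArG box, the binding motif of serum response factor.
Egr1 (chr18:26736828-26737077, plus strand): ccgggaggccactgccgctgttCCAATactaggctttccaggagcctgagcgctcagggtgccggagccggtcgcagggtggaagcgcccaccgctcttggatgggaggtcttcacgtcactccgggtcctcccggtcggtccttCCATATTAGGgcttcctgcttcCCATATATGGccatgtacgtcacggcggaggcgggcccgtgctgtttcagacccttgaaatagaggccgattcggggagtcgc
Klf6 (chr17:69458479-69458728, minus strand): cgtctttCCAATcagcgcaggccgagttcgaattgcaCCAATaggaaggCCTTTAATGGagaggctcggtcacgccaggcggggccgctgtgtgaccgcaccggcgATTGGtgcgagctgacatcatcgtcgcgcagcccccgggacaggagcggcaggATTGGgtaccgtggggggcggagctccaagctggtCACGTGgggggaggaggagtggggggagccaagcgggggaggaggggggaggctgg
Jund (chr16:18769772-18770021, minus strand): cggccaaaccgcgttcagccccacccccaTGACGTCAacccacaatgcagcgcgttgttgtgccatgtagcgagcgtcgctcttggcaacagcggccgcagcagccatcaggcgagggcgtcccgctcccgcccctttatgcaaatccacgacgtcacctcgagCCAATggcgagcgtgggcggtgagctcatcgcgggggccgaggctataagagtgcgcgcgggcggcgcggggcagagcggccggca
Fosl1 (chr1:212183635-212183884, plus strand): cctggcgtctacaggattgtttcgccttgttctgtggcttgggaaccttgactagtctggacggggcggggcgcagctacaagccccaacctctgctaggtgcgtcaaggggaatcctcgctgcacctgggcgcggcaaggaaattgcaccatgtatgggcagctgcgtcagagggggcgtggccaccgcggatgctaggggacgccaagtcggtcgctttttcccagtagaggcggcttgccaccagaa
Egr1 held 2 CArG boxes, 105 to 96 and 83 to 74 bases before its start, and Klf6 held 1, 201 to 192 bases before. A CArG box was found in 1.5% of 33469 promoters of the same length. Klf6 also held an E-box (5.59% of promoters) and 4 CCAAT boxes in either orientation (34.0% of promoters hold at least 1). Jund held a cyclic AMP response element (1.59% of promoters), and the Fosl1 window held none of these letters. Among the windows not shown, Fosl2 held an EGR site 249 to 241 bases before its start (2.45% of promoters). Fosb held the TATA box letters on the opposite strand, 180 to 175 bases before its start. Junb held them as TATAAA 49 to 44 bases before its start, and also held a CCAAT box. In either orientation 12.9% of promoters held the TATA box letters. No member window held TGANTCA, which 6.34% of promoters held. These are letter matches and not measured binding.

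The first question was which members were raised in injured wild-type cortex. At 1 week Fosl1, Jund, Egr1, Myc and Klf6 were higher than in the controls, 5 of the 7 members tested, where 12.8% of all genes tested were called higher. At 3 weeks the 5 called higher were Jun, Jund, Egr1, Myc and Klf6, where 8.75% of all genes were. The members' median log2 difference was 1.70 at 1 week and 1.24 at 3 weeks, beside -0.02 over all genes at either time. In BRCA1+/- cortex, 4 members were called higher at 1 week (Fosl1, Egr1, Myc and Klf6; 4.27% of all genes) and 5 at 3 weeks (Fosl1, Jun, Egr1, Myc and Klf6; 9.37% of all genes), with medians of 0.90 and 1.64. No member was called lower than control, where 14.3% and 5.55% of all genes were in wild type at 1 and 3 weeks and 3.20% and 6.52% in BRCA1+/-. Fitted probe by probe, 10 and 9 of the members' 13 kept probes were called higher in wild type (13.3% and 8.70% of all probes) and 5 and 9 in BRCA1+/- (4.39% and 9.09%). Probes of the same gene are not independent, and the Fosl2 pair of identical sequence is counted as separate probes. Fosl1 passed the filter only through the 1-week groups, the Fosl2 probe A_44_P1082224 only through BRCA1+/- at 3 weeks, and the Fosl2 probe A_64_P065063 and the Egr1 probe A_64_P082693 only through the treated groups. These had to be high in some treated group to be tested, so these counts cover the members that could be tested and give no support of their own. Both treated groups of a genotype were compared with the same 2 controls. More cells of a type and more RNA per cell, or fewer cells and less RNA, cannot be told apart in tissue RNA.

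**Figure D1:**
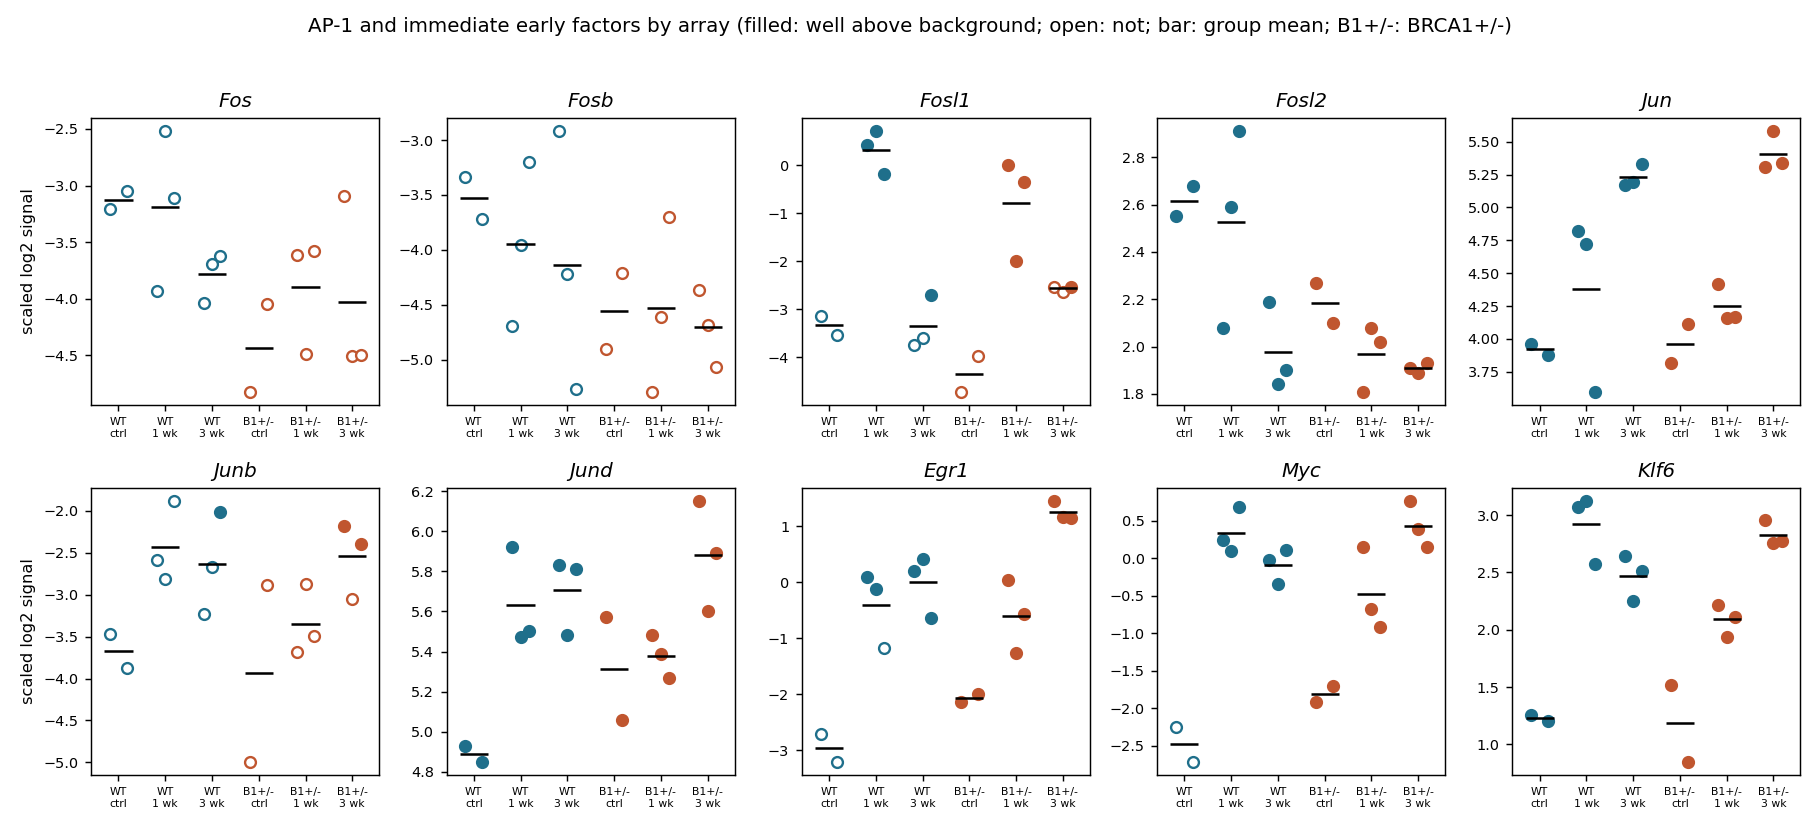
Scaled log2 signal of each member on every array, by group, with filled points well above background, open points not, and a bar at the group mean; each panel has its own axis. Fos and Fosb are open throughout, Fosl1 is high in the 1-week groups alone, and Egr1, Myc and Klf6 lie above their controls in all 4 treated groups.

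Among the Fos family, the classical members gave no signal that could be read. The Fos probe was well above background on 0 of 16 arrays, with scaled log2 signals from -4.82 to -2.52, and the Fosb probe likewise on 0 of 16, from -5.29 to -2.92. Both were therefore not well above background in any group 48 h after the last injection, and no fold is given.

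Fosl1 encodes the AP-1 subunit Fra-1. In wild type the controls read -3.13 and -3.54, the 1-week arrays 0.42, 0.71 and -0.18, and the 3-week arrays -3.75, -3.60 and -2.71. All 3 arrays at 1 week were well above background and lay far over the rest, while the 3-week arrays overlapped the controls. Fosl1 was at least 3.87-fold higher at 1 week than in the controls (adjusted p = 1.0e-04). At 3 weeks, with 1 of 3 arrays well above background and neither control, it was not called against control (adjusted p = 0.98) and no fold is given. From 1 to 3 weeks it fell: the difference was -3.67 ± 0.44 with the dim signals as measured (adjusted p = 9.7e-04) and -2.76 with them raised to each array's limit (adjusted p = 0.0013). It was the only member called between the times in wild type, where 2.77% of all genes were called lower. Fosl1 was tested only because the 1-week groups passed the filter. Its 1-week calls in both genotypes and its fall afterwards are therefore no independent support.

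In BRCA1+/- rats the Fosl1 controls read -4.71 and -3.97, the 1-week arrays 0.00, -1.99 and -0.35, and the 3-week arrays -2.53, -2.63 and -2.53. The 1-week arrays spread over nearly 2 units but stayed above all others of the genotype. Fosl1 was at least 4.16-fold higher at 1 week (adjusted p = 6.8e-04). At 3 weeks it was at least 1.21-fold higher (adjusted p = 0.026), with 1 of 3 arrays well above background. This 3-week call was lost without any single BRCA1+/- control or 3-week array: without control replicate 1 or 2 the adjusted p was 0.21 or 0.061, and without 3-week replicate 1, 2 or 3 it was 0.0538, 0.0516 or 0.069. It was also lost with dim values set at the detection limit (log2 0.31, adjusted p = 0.65). The difference between 3 and 1 week was -1.79 ± 0.44 and was not called (adjusted p = 0.11), although it was without 1-week replicate 2 (-2.39, adjusted p = 0.0058). With normexp background correction, which compresses dim signals, the 1-week differences were 0.61 in either genotype (adjusted p = 0.0508 in wild type and 0.096 in BRCA1+/-).

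Fosl2, which encodes Fra-2, could not be summarised by a single value because its probes disagreed. The brightest probe, A_44_P1152997, read 2.55 and 2.68 in wild-type controls, 2.08, 2.59 and 2.91 at 1 week, and 2.19, 1.84 and 1.90 at 3 weeks. It read 2.27 and 2.10 in BRCA1+/- controls, 1.81, 2.08 and 2.02 at 1 week, and 1.91, 1.89 and 1.93 at 3 weeks. These values lay within about 1 unit of each other, and the largest difference from control was -0.64 ± 0.26, in wild type at 3 weeks (adjusted p = 0.11). That difference was called without wild-type 1-week replicate 3 (-0.64, adjusted p = 0.033), and the wild-type difference between 3 weeks and 1 week, -0.55 ± 0.23 (adjusted p = 0.16), was called without 1-week replicate 1 (-0.77, adjusted p = 0.037).

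The pair of Fosl2 probes with the same 60 bases rose in wild type. A_64_P065063 read -2.29 and -2.43 in wild-type controls, both not well above background, -0.63, -0.86 and -0.15 at 1 week and -0.86, -1.87 and -0.88 at 3 weeks. In BRCA1+/- it read -2.58 and -2.1 in the controls, -1.7, -1.42 and -1.21 at 1 week and -0.8, -1.01 and -1.32 at 3 weeks. Treated arrays lay above the controls of their genotype throughout. In a fit of each probe on its own, added after the data were seen, it was at least 2.13-fold higher at 1 week and at least 1.35-fold higher at 3 weeks in wild type (adjusted p over 20452 probes 0.001 and 0.031). In BRCA1+/- it differed from control by 0.90 ± 0.33 at 1 week (adjusted p = 0.12) and was higher by 1.3 ± 0.33 at 3 weeks (adjusted p = 0.018). Its twin A_44_P1082224 was at least 1.88-fold and at least 1.15-fold higher in wild type (adjusted p = 4.4e-04 and 0.0092) and was not called in BRCA1+/- (adjusted p = 0.33 and 0.073). Both probes were tested only because treated groups passed the filter, so their calls are no independent support. Averaging the probes gave a Fosl2 difference of 1.43 at 1 week in wild type (adjusted p = 0.0021) in place of -0.09 ± 0.26 (adjusted p = 0.84). Which probe reports the main Fosl2 transcript was not tested.

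**Figure D2:**
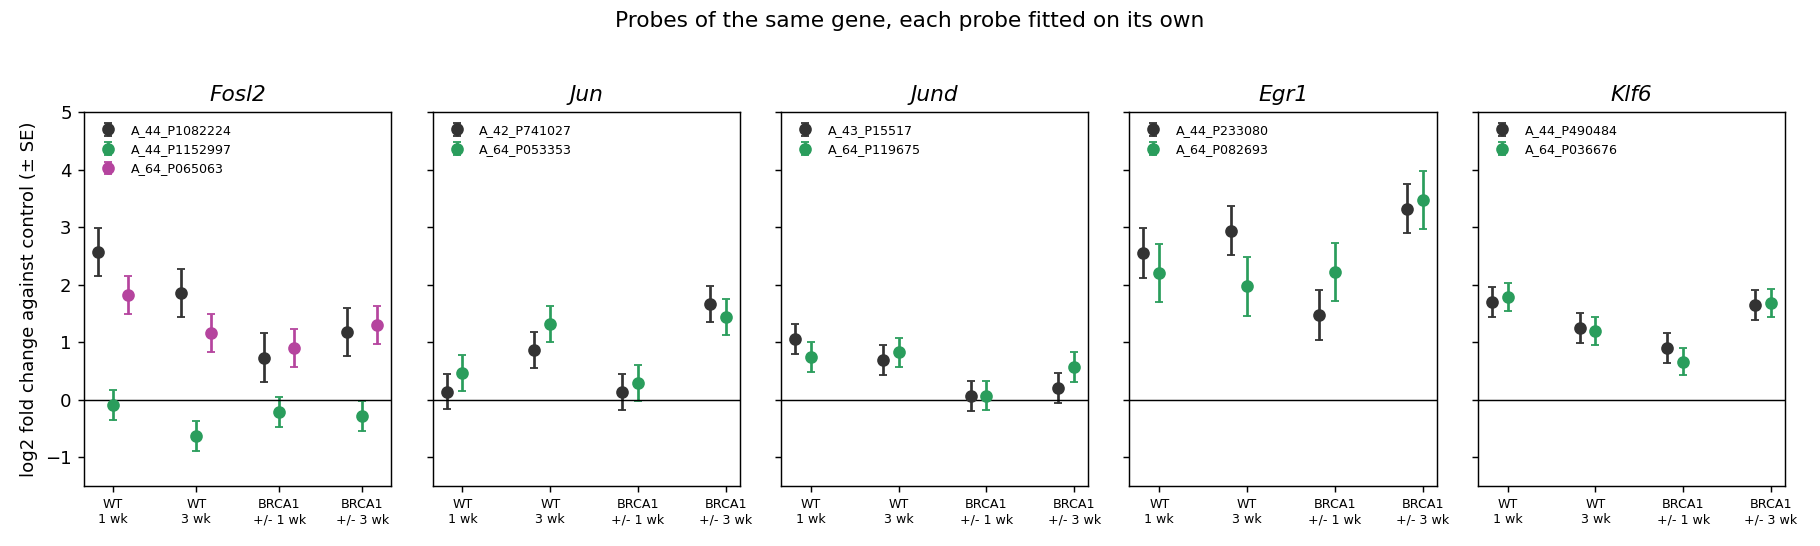
Log2 difference from the control of the genotype ± SE for each probe of the members with more than 1 probe tested, each probe fitted on its own. The bright Fosl2 probe stays near or below 0 while the pair of the same sequence lies above it. The probes of Klf6 move together. Both probes of Egr1 lie above 0 in every comparison, but they rank the comparisons differently. Where controls were not well above background (the Fosl2 pair and Egr1), the plotted difference rests on dim signals and the text gives lower bounds.

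Among the Jun family, Jun, the partner through which most Fos proteins bind DNA, read 3.96 and 3.88 in wild-type controls, 4.82, 4.72 and 3.60 at 1 week, and 5.17, 5.19 and 5.33 at 3 weeks. The 3-week arrays stood above all others of the genotype, whereas the 1-week arrays straddled the controls. In BRCA1+/- the controls read 3.82 and 4.11, the 1-week arrays 4.42, 4.16 and 4.17, and the 3-week arrays 5.31, 5.58 and 5.34. Again the 3-week arrays lay a full unit above the controls, and the 1-week arrays just above them.

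Jun was higher at 3 weeks by 1.31 ± 0.31 in wild type (adjusted p = 0.012) and by 1.44 ± 0.31 in BRCA1+/- (adjusted p = 0.0072). The difference at 1 week was 0.46 ± 0.31 (adjusted p = 0.31) and 0.29 ± 0.31 (adjusted p = 0.64). Without wild-type 1-week replicate 3, the array at 3.60, the wild-type 1-week difference was 0.85 and was called (adjusted p = 0.0051), as it was after quantile normalization (0.73, adjusted p = 0.0468). The 3-week call was lost in wild type without control replicate 1 or 2 (1.35, adjusted p = 0.066, and 1.27, adjusted p = 0.099), and in BRCA1+/- without control replicate 1 (1.3, adjusted p = 0.082). From 1 to 3 weeks Jun differed by 0.85 ± 0.28 in wild type (adjusted p = 0.075) and by 1.15 ± 0.28 in BRCA1+/- (adjusted p = 0.098), neither called. Those differences were called without wild-type 1-week replicate 1 (1.07, adjusted p = 0.03) and without wild-type 1-week replicate 3 (1.15 in BRCA1+/-, adjusted p = 0.0077).

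A second Jun probe, A_42_P741027, is printed 10 times on each array, with a median SD between its spots of 0.06 log2 units. In wild type it read 2.19 and 1.96 in the controls, 2.77, 2.32 and 1.56 at 1 week and 3.03, 2.78 and 3.0 at 3 weeks. In BRCA1+/- it read 1.92 and 1.77, then 2.31, 1.81 and 1.81, then 3.39, 3.5 and 3.62. As on the first probe, the 3-week arrays were the highest of each genotype. The probe gave a 3-week difference of 1.66 ± 0.31 in BRCA1+/- (adjusted p over probes 0.0028) and of 0.86 ± 0.31 in wild type (adjusted p = 0.075). Its difference between 3 weeks and 1 week in BRCA1+/- was 1.53 ± 0.27 and was called (adjusted p = 0.03), the only member probe higher in that comparison, where 0.200% of all probes were.

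Junb, an immediate early Jun protein, was near the limit of the array. Its probe was well above background on 3 of 16 arrays, at -2.02 on wild-type 3-week replicate 3 and at -2.18 and -2.4 on BRCA1+/- 3-week replicates 1 and 3. It was not well above background on any control or 1-week array, so it was not tested.

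Jund, the Jun protein usually present at rest, had the smallest differences among the members called. Wild-type controls read 4.93 and 4.85, 1-week arrays 5.92, 5.47 and 5.50, and 3-week arrays 5.83, 5.48 and 5.81, so treated arrays did not overlap the controls. BRCA1+/- controls read 5.57 and 5.06, 1-week arrays 5.48, 5.39 and 5.27, and 3-week arrays 6.15, 5.60 and 5.89. Here the 1-week arrays lay between the controls. Jund was higher in wild type by 0.74 ± 0.26 at 1 week (adjusted p = 0.044) and 0.82 ± 0.26 at 3 weeks (adjusted p = 0.0455), and differed in BRCA1+/- by 0.07 ± 0.26 (adjusted p = 0.91) and 0.57 ± 0.26 (adjusted p = 0.14). Both wild-type calls were marginal. The 1-week call was lost on leaving out any of 10 arrays, at adjusted p from 0.0508 to 0.20: either wild-type control, wild-type 1-week replicate 1, any wild-type 3-week array, any BRCA1+/- 1-week array, or BRCA1+/- 3-week replicate 3. The 3-week call was lost without any of 10 arrays, at 0.0501 to 0.22: either wild-type control, any wild-type 3-week array, any BRCA1+/- 1-week array, or BRCA1+/- 3-week replicate 2 or 3. The second Jund probe, A_43_P15517, was called in wild type at 1 week (1.05 ± 0.26, adjusted p over probes 0.0069) and not at 3 weeks (0.69 ± 0.26, adjusted p = 0.086).

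Egr1 was called higher than control in every treated group. Wild-type controls read -2.70 and -3.20, neither well above background, the 1-week arrays 0.10, -0.13 and -1.17, and the 3-week arrays 0.20, 0.42 and -0.64. Every treated array stood above the controls, although 1-week replicate 3 was itself not well above background. Egr1 was at least 2.36-fold higher at 1 week (adjusted p = 5.1e-04) and at least 3.09-fold higher at 3 weeks (adjusted p = 5.5e-04) in wild type. In BRCA1+/- the controls read -2.14 and -2.0, the 1-week arrays 0.04, -1.26 and -0.57, and the 3-week arrays 1.44, 1.16 and 1.15. The 3 arrays at 3 weeks were the highest of all 16. Egr1 was higher by 3.32 ± 0.43 at 3 weeks (adjusted p = 2.1e-04) and by 1.47 ± 0.43 at 1 week (adjusted p = 0.0488).

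The BRCA1+/- 1-week Egr1 call was lost on leaving out any of 12 arrays, at adjusted p from 0.0522 to 0.24: all but wild-type 1-week replicates 1 and 3, wild-type 3-week replicate 3 and BRCA1+/- 1-week replicate 2. With normexp correction the differences were 0.36 (adjusted p = 0.24) and 0.43 (adjusted p = 0.16) in wild type at 1 and 3 weeks, and 0.41 in BRCA1+/- at 1 week (adjusted p = 0.26), none called. The second probe, A_64_P082693, which passed the filter only through the treated groups and so gives no support to that call, was called in all 4 groups and was at least 2.57-fold higher in BRCA1+/- at 1 week (adjusted p over probes 0.016) and at least 6.08-fold at 3 weeks (adjusted p = 5.7e-04). The 3-week against 1-week difference in BRCA1+/- was 1.85 ± 0.38 (adjusted p = 0.059). It was called with the replicate number as a block (1.85, adjusted p = 0.035) and without wild-type 1-week replicate 1 or 3 or BRCA1+/- 1-week replicate 1 (adjusted p = 0.0485, 0.024 and 0.0463).

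Myc was also called higher than control in every treated group. Wild-type controls read -2.25 and -2.71, neither well above background, the 1-week arrays 0.24, 0.10 and 0.68, and the 3-week arrays -0.02, -0.34 and 0.11. BRCA1+/- controls read -1.92 and -1.70, the 1-week arrays 0.15, -0.68 and -0.91, and the 3-week arrays 0.76, 0.39 and 0.15. No treated array overlapped a control of its genotype. Myc was at least 3.93-fold higher at 1 week (adjusted p = 3.2e-05) and at least 2.93-fold higher at 3 weeks (adjusted p = 3.8e-04) in wild type. It was higher by 1.33 ± 0.33 at 1 week (adjusted p = 0.024) and by 2.24 ± 0.33 at 3 weeks (adjusted p = 5.3e-04) in BRCA1+/-. The 1-week call in BRCA1+/- was lost without control replicate 1 (adjusted p = 0.18), control replicate 2 (adjusted p = 0.099) or 1-week replicate 1 (adjusted p = 0.074). With normexp correction it was 0.38 (adjusted p = 0.17), and the wild-type 3-week difference was 0.32 (adjusted p = 0.19).

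Klf6 was well above background on all 16 arrays, so that its differences are measured on both sides. Wild-type controls read 1.26 and 1.20, the 1-week arrays 3.07, 3.12 and 2.57, and the 3-week arrays 2.64, 2.25 and 2.51. BRCA1+/- controls read 1.52 and 0.85, the 1-week arrays 2.22, 1.94 and 2.11, and the 3-week arrays 2.96, 2.76 and 2.77. Treated arrays lay above the controls throughout. Klf6 was higher in wild type by 1.70 ± 0.26 at 1 week (adjusted p = 2.8e-04) and by 1.24 ± 0.26 at 3 weeks (adjusted p = 0.006), and in BRCA1+/- by 0.90 ± 0.26 (adjusted p = 0.0498) and 1.64 ± 0.26 (adjusted p = 9.7e-04). The BRCA1+/- 1-week call was lost on leaving out any of 14 arrays, all but wild-type 1-week replicates 2 and 3, at adjusted p from 0.0514 to 0.43 and log2 differences from 0.57 to 1.23. The wild-type 3-week call was lost without control replicate 2 (1.21, adjusted p = 0.064). A second probe, A_64_P036676, read 0.36, 0.59 and 0.68 in wild type at 1 week against -0.58, -0.66 and -0.61 in BRCA1+/-, with no overlap. Against control it gave 1.79 ± 0.24 and 1.19 ± 0.24 in wild type and 0.66 ± 0.24 and 1.68 ± 0.24 in BRCA1+/-, in the same order, with the BRCA1+/- 1-week value not called (adjusted p over probes 0.11). The remaining Klf6 probe, A_44_P1153918, was well above background on 0 of 16 arrays.

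**Figure D3:**
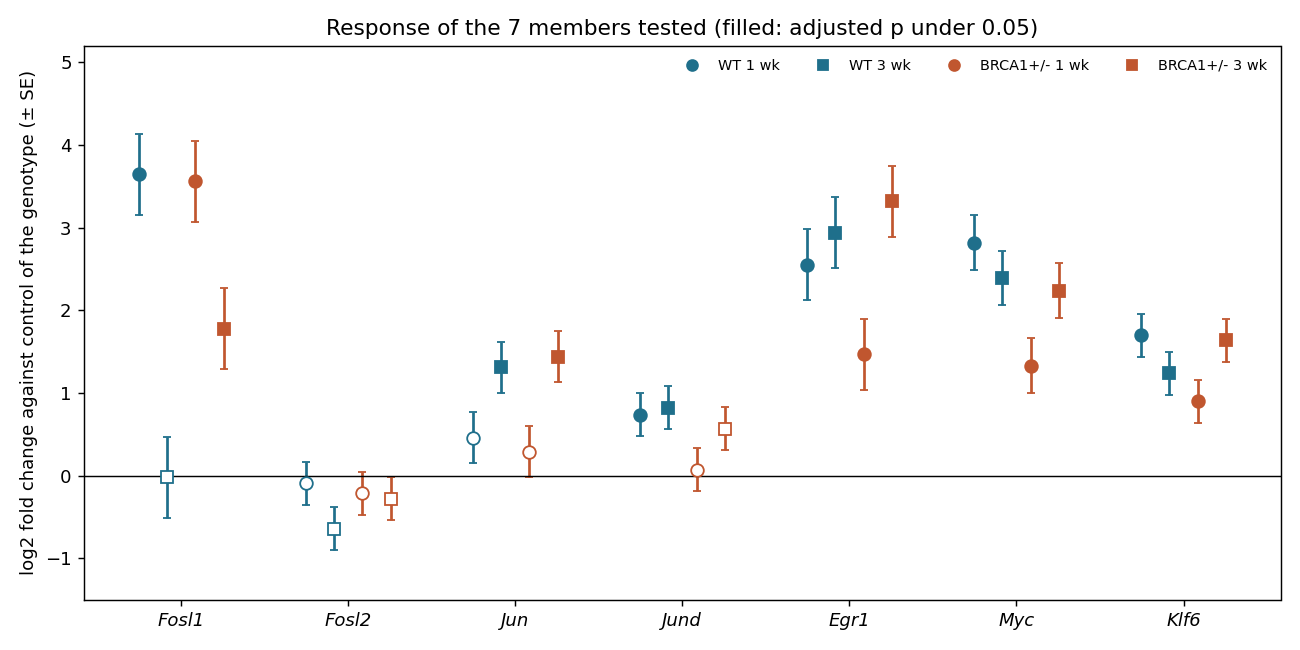
Log2 difference from the control of the genotype ± SE for the 7 members tested, filled where called. Egr1, Myc and Klf6 are filled in all 4 comparisons, Fosl1 at 1 week and weakly in BRCA1+/- at 3 weeks, and Jun at 3 weeks; Fosl2 is filled nowhere. Fosl1 in both genotypes, and Egr1 and Myc in wild type, rest on controls not well above background, for which the text gives lower bounds.

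The arrays lay on 2 slides, each of which held all 6 groups. More arrays of each treated wild-type group lay on the second slide, and more of each treated BRCA1+/- group on the first. Genotype differences after treatment are therefore partly mixed with slide. Between genotypes at 1 week, 34 genes and no member were called with slide as a block, beside 90 genes without it. With slide as a block, 4 members were called in wild type at either time and 5 in BRCA1+/- at 3 weeks, and in BRCA1+/- at 1 week 2 were, with Egr1 at 1.5 (adjusted p = 0.0519). Jund lost its call at both times under that block. Within a slide, where a group has 1 or 2 arrays, most calls were lost. Jun at 3 weeks was 1.37 and 1.3 within the slides in wild type (adjusted p = 0.15 and 0.52) and 1.34 and 1.52 in BRCA1+/- (adjusted p = 0.10 and 0.57). Klf6 in wild type was 1.87 and 1.63 at 1 week (adjusted p = 0.062 and 0.17) and 1.26 and 1.25 at 3 weeks (adjusted p = 0.16 and 0.51). Within the first slide Fosl1 at 1 week was 3.84 in wild type and 2.80 in BRCA1+/- (adjusted p = 0.07 and 0.17), Egr1 in wild type 2.58 and 2.06 (adjusted p = 0.06 and 0.12), and Myc 2.35 at 1 week and 2.36 at 3 weeks (adjusted p = 0.056 and 0.096). Fosl1 between the times in wild type was -3.43 there (adjusted p = 0.30). Jund in wild type was 0.54 and 0.86 within the slides at 1 week (adjusted p = 0.45 and 0.56) and 0.88 and 0.81 at 3 weeks (adjusted p = 0.32 and 0.79). In BRCA1+/- at 1 week Egr1 was 1.09 and 2.17 (adjusted p = 0.26 and 0.39), Myc 0.90 and 2.07 (adjusted p = 0.26 and 0.38) and Klf6 1.17 and 0.70 (adjusted p = 0.18 and 1). At 3 weeks Fosl1 was 1.39 and 2.19 there (adjusted p = 0.27 and 0.23), and within the second slide Myc was 2.07 and Klf6 1.25 (adjusted p = 0.27 and 0.67). Myc in wild type at 3 weeks was 2.53 within the second slide (adjusted p = 0.057). All of these kept the direction of the fit over both slides.

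The order of the group means differed between members. For Egr1 it ran from BRCA1+/- 3 weeks at 1.25 through wild type 3 weeks (-0.01), wild type 1 week (-0.40) and BRCA1+/- 1 week (-0.60) to the BRCA1+/- (-2.07) and wild-type controls (-2.95), and the middle 3 overlapped. For Myc it ran from BRCA1+/- 3 weeks at 0.43 through wild type 1 week (0.34), wild type 3 weeks (-0.09) and BRCA1+/- 1 week (-0.48), neighbours of which overlapped, to the controls (-1.81 and -2.48). For Klf6 it ran from wild type 1 week at 2.92 and BRCA1+/- 3 weeks at 2.83, which overlapped, through wild type 3 weeks (2.47) and BRCA1+/- 1 week (2.09), which did not, to the controls (1.23 and 1.19), which did. For Jun it ran from BRCA1+/- 3 weeks at 5.41 and wild type 3 weeks at 5.23, which overlapped, down to 4.38 and 4.25 at 1 week and 3.96 and 3.92 in the controls. For Fosl1 it ran from wild type 1 week at 0.32 and BRCA1+/- 1 week at -0.78, which overlapped, to -2.56 in BRCA1+/- at 3 weeks, and in the remaining groups a single array was well above background.

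The next question was whether the genotypes differed. No member was called between the genotypes in the controls (0% of all genes called; 0 members and 4.63% of genes at an unadjusted p under 0.05 in limma), at 1 week (0.560% of genes called; 4 members and 12.7% of genes at that unadjusted p) or at 3 weeks (0% of genes called; 1 member and 5.82% of genes). The nearest was Klf6 at 1 week, lower in BRCA1+/- by -0.84 ± 0.23 (adjusted p = 0.13, 95% interval -1.34 to -0.33), with no overlap between the 3 arrays of each group. Averaged over its probes the Klf6 difference was -1.0 and was called (adjusted p = 0.041), and the probe A_64_P036676 on its own gave -1.16 ± 0.21 (adjusted p over probes 0.035), the 1 member probe lower in a comparison where 0.0685% of probes were. Egr1 at 3 weeks was 1.26 ± 0.38 higher in BRCA1+/-, not called (adjusted p = 0.79, 95% interval 0.44 to 2.07). The BRCA1+/- controls already read 0.88 ± 0.47 above the wild-type controls on this probe. The difference in response at 3 weeks was 0.38 ± 0.6 (adjusted p = 0.98). On the second Egr1 probe, BRCA1+/- minus wild type was 0.87 ± 0.46 at 3 weeks (adjusted p over probes 0.81). It was -0.63 ± 0.56 in the controls, and the difference in response was 1.5 ± 0.72 (adjusted p = 0.96). None of these was called.

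Tests of the difference in response called no member either: at 1 week against control 0% of genes were called, and 2 members and 7.6% of genes had an unadjusted p under 0.05 in limma. At 3 weeks 0% of genes were called, and 1 member and 4.78% of genes had. The time course, 3 weeks minus 1 week, was compared between genotypes as a test added after the data were seen, in which 0.118% of genes were called, 0 members were, and 4 members and 10.1% of genes had an unadjusted p under 0.05 in limma. In BRCA1+/- minus wild type this difference was 1.20 for Klf6 (adjusted p = 0.17, 95% interval 0.49 to 1.91), 1.34 for Myc (adjusted p = 0.22, interval 0.46 to 2.22), 1.46 for Egr1 (adjusted p = 0.32, interval 0.31 to 2.61) and 1.89 for Fosl1 (adjusted p = 0.26, interval 0.56 to 3.22). Within BRCA1+/- no member was called between 3 weeks and 1 week (0.305% of genes called), and 6 members and 11.7% of genes had an unadjusted p under 0.05 in limma.

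**Figure D4:**
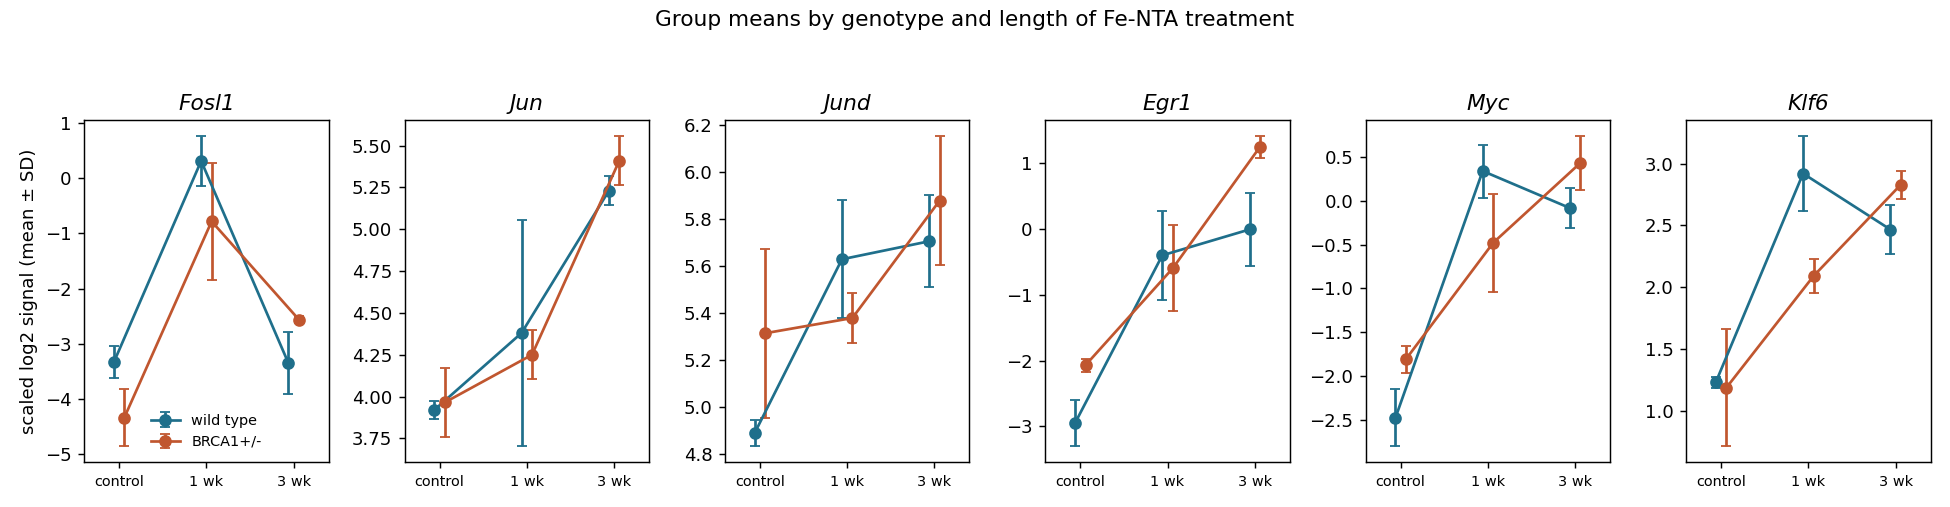
Group mean ± SD of the scaled log2 signal for 6 members in controls, at 1 week and at 3 weeks, by genotype (2 control and 3 treated arrays per point). Fosl1 peaks at 1 week in both genotypes and Jun is highest at 3 weeks; Myc and Klf6 are highest at 1 week in wild type and at 3 weeks in BRCA1+/-, a difference that did not pass the test.

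Over the 16 arrays some members varied together more closely than others. As a description of arrays that share groups, treatment and processing, Pearson's r was 0.90 for Myc with Klf6, 0.86 for Egr1 with Myc and 0.84 for Jun with Egr1. Jund gave 0.7 to 0.81 with Jun, Egr1, Myc and Klf6. Fosl1 lay between, at 0.56 with Klf6, 0.52 with Myc, 0.29 with Egr1, 0.16 with Jund and -0.06 with Jun. Fosl2, by its bright probe, ran from -0.67 with Jun to 0.13 with Fosl1. Fosl1 was most like Mybl2 (r = 0.967) and Ccna2 (r = 0.959), both genes of the dividing cell. Ccna2 averaged -2.63 in wild-type controls, 1.61 at 1 week and -1.94 at 3 weeks, and 0.39 at 1 week in BRCA1+/-. Jun was most like Adar (r = 0.957) and Slc22a15 (r = 0.95), and Egr1 like Pxdn (r = 0.971) and Dok1 (r = 0.963). Myc was most like Map3k1 (r = 0.968) and Socs3 (r = 0.957), a cytokine signalling inhibitor whose group means were -2.48, 1.85 and 1.17 in wild type and -2.32, 0.74 and 2.34 in BRCA1+/-. Klf6 was most like Parp14 (r = 0.956) and Vasp (r = 0.95), Jund like Smarcd1 (r = 0.921) and Wasf2 (r = 0.891), and Fosl2 like Ppie (r = 0.912) and Cct2 (r = 0.883).

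Genes around the members were read from lists of known partners, inducers and targets. The lists were chosen with earlier results of these data known. A listed gene dim in the controls of both genotypes could be tested only where a treated group had it well above background. The shares called higher and the medians of the lists therefore give no support of their own. Of 18 other leucine zipper partners, all tested, 4 were higher and 3 lower in wild type at 1 week, 4 and 0 at 3 weeks, 2 and 0 in BRCA1+/- at 1 week and 3 and 0 at 3 weeks, with list medians of 0.45, 0.71, 0.24 and 0.37. The shares of the list called higher were 22.2, 22.2, 11.1 and 16.7%, beside 12.8, 8.75, 4.27 and 9.37% of all genes, and those called lower at 1 week in wild type were 16.7% beside 14.3%. The medians over all genes were -0.02, -0.02, -0.03 and 0.01, and these values stand beside each list that follows. Atf3, a stress-induced partner of Jun, was at least 6.06-fold higher at 1 week and at least 4.06-fold at 3 weeks in wild type (adjusted p = 6.1e-06 and 7.3e-05), and higher by 2.97 ± 0.40 and 4.15 ± 0.40 in BRCA1+/- (adjusted p = 5.8e-04 and 1.7e-05), where 1 of 2 controls was well above background. Batf, a partner best known in lymphocytes, was called in all 4 comparisons on dim signals: it was at least 3.45-fold higher in BRCA1+/- at 3 weeks (adjusted p = 8.6e-04), at least 1.26-fold at 1 week (adjusted p = 0.0498) and at least 1.04-fold in wild type at 3 weeks (adjusted p = 0.019). No fold is given for Batf in wild type at 1 week (adjusted p = 0.032), and with normexp correction it was at -0.01 and -0.02 in wild type. Maf, a factor of differentiated cells, fell in wild type at 1 week by 2.43 ± 0.46 (adjusted p = 0.0012), and Mafk and Nfe2l2, the gene of NRF2, were the others called lower there (named after their values were seen).

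Of 43 other immediate early and early response genes, 33 could be tested. In wild type 11 were higher and 3 lower at 1 week, and 11 and 0 at 3 weeks. In BRCA1+/- 2 and 0 were at 1 week, and 8 and 0 at 3 weeks. The shares called higher were 33.3, 33.3, 6.06 and 24.2%, and 9.09% were lower in wild type at 1 week. The list medians were 0.16, 0.59, 0.25 and 0.52. Plk2, a stress-induced polo-like kinase, was at least 13.2-fold higher in wild type at 1 week and at least 5.75-fold at 3 weeks (adjusted p = 4.1e-06 and 2.1e-04), and higher by 3.23 ± 0.34 and 2.72 ± 0.34 in BRCA1+/- (adjusted p = 1.2e-04 and 1.9e-04). Klf5, a relative of Klf6 induced in injured epithelium, was higher by 2.18 ± 0.35 and 2.11 ± 0.35 in wild type and by 2.51 ± 0.35 in BRCA1+/- at 3 weeks, with 1.15 ± 0.35 at 1 week not called (adjusted p = 0.06). Ccn1, a secreted matrix protein, was higher in all 4 groups, by 1.02 ± 0.33 to 2.43 ± 0.33.

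Of 23 kinases and factors upstream of the members, 20 were tested, and 3 were higher and 3 lower in wild type at 1 week, 1 and 0 at 3 weeks, 0 and 0 in BRCA1+/- at 1 week and 1 and 1 at 3 weeks, with medians from 0.06 to 0.34. In wild type at 1 week that is 15% each way, near the shares of all genes, and 5% or fewer were called in either direction elsewhere. Map3k1, a kinase above JNK and ERK, was at least 4.34-fold higher at 1 week and at least 2.59-fold at 3 weeks in wild type (adjusted p = 1.5e-05 and 5.5e-04). It was higher by 1.71 ± 0.27 in BRCA1+/- at 3 weeks (adjusted p = 0.001) and by 0.93 ± 0.27, not called, at 1 week (adjusted p = 0.054). Mapk9, which encodes JNK2, fell by 0.67 ± 0.22 in wild type at 1 week (adjusted p = 0.033) and by 0.73 ± 0.22 in BRCA1+/- at 3 weeks (adjusted p = 0.034). Map2k1, which encodes MEK1, was called higher in wild type at 1 week (1.1 ± 0.30, adjusted p = 0.014), although the probe used was not well above background in the wild-type controls; no bound is given because another probe of the gene was. Of 12 Myc network partners 9 were tested, and Mxi1, an antagonist that competes with Myc for Max, was the only one called, lower by -1.48 ± 0.37 in wild type at 1 week (adjusted p = 0.0084). That is 11.1% of those tested, below the 14.3% of all genes called lower there. Mnt and Mxd4 were not called, Mnt lying 1.19 ± 0.42 above control in wild type at 3 weeks (adjusted p = 0.069) and Mxd4 0.38 ± 0.25 (adjusted p = 0.33).

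Of 23 genes known as AP-1 targets, 15 were tested, and 9 were higher in wild type at 1 week, 7 at 3 weeks, 8 in BRCA1+/- at 1 week and 10 at 3 weeks, with none lower. The shares called higher were 60, 46.7, 53.3 and 66.7%, with the limit stated above for all lists. The list medians were 2.08, 1.08, 1.97 and 2.4. Il24, a cytokine of the interleukin 10 family, was at least 24.4-fold and at least 15.1-fold higher in wild type (adjusted p = 2.9e-06 and 1.6e-05), and at least 34.8-fold and at least 59.9-fold higher in BRCA1+/- (adjusted p = 4.8e-05 and 3.6e-06). Cd44, a matrix receptor, was at least 17.7-fold and at least 9.52-fold higher in wild type (adjusted p = 1.0e-05 and 1.6e-04), and higher by 3.47 ± 0.51 and 4.49 ± 0.51 in BRCA1+/- (adjusted p = 0.001 and 8.4e-05). Timp1, an inhibitor of matrix proteases, was higher by 2.79 ± 0.40 and 2.20 ± 0.40 in wild type and by 2.51 ± 0.40 and 3.08 ± 0.40 in BRCA1+/-. Il24, Atf3 and Batf were not well above background on all controls of either genotype and so entered the test through treated groups, in which they are high.

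Of 26 genes known as Myc targets, 25 were tested, and 11 were higher and 1 lower in wild type at 1 week, 1 and 1 at 3 weeks, 1 and 0 in BRCA1+/- at 1 week and 2 and 2 at 3 weeks. The shares called higher were 44, 4, 4 and 8%. The list medians were 0.83, 0.30, 0.40 and 0.42. Mcm5, a subunit of the replicative helicase, was higher by 4.15 ± 0.38 and 1.78 ± 0.38 in wild type and by 3.07 ± 0.38 and 1.51 ± 0.38 in BRCA1+/-, called in all 4, and fell by 2.38 ± 0.34 from 1 to 3 weeks in wild type (adjusted p = 0.002). Pcna, the sliding clamp of DNA replication, was higher by 1.1 ± 0.26 in wild type at 1 week (adjusted p = 0.006) and fell by 1.57 ± 0.23 from 1 to 3 weeks (adjusted p = 0.002). Tfrc, the transferrin receptor, fell at 3 weeks by 2.25 ± 0.46 in wild type (adjusted p = 0.0053; 1 of 3 treated arrays well above background, -1.22 with the dim signals raised to the limit) and by 1.71 ± 0.46 in BRCA1+/- (adjusted p = 0.023). Myc itself stayed high at 3 weeks in wild type, at a mean of -0.09 against 0.34 at 1 week (-0.43 ± 0.29, adjusted p = 0.40).

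**Figure D5:**
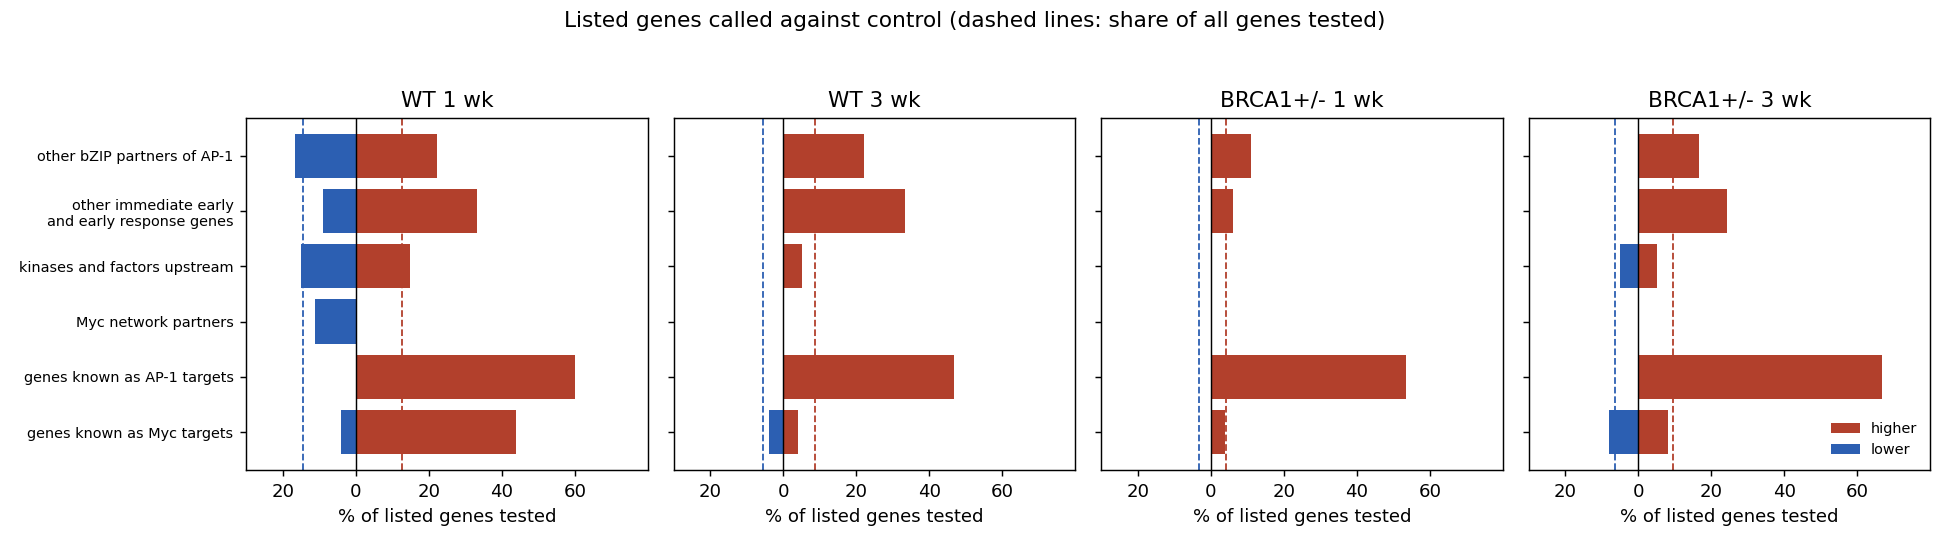
Share of the tested genes of each list called higher (right) or lower (left) than the control of the genotype, in percent, with dashed lines at the share of all genes tested. AP-1 targets, leucine zipper partners and other immediate early genes reach past the line for higher calls in all 4 comparisons; Myc targets do so in wild type at 1 week, and pass the line for lower calls in BRCA1+/- at 3 weeks. In wild type at 1 week the upstream kinases lie just past both lines and the partners past the lower one.

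Markers of cell types moved with the same comparisons, and their part in the members' results was not tested. Of 6 macrophage markers, 5 were tested, and 4 and 3 were higher in wild type at 1 and 3 weeks and 3 and 4 in BRCA1+/-. Their summed scaled signal was 7.51 to 9.60 in wild-type and 7.69 to 8.93 in BRCA1+/- controls. In wild type it was 19.3 to 47.4 at 1 week and 34 to 51.2 at 3 weeks, and in BRCA1+/- 18.9 to 26.2 and 31.1 to 60. Adgre1 and Cd163 were well above background in no control. Of 4 fibroblast markers, 3 and 4 were higher in wild type and 1 and 4 in BRCA1+/-, with sums of 17.6 to 23.3 and 25.4 to 31.4 in the controls and of 50.6 to 158 over the treated arrays. The 6 proximal tubule markers marked the labelled cortex in the controls, with a sum of 932 to 1140 in wild type and 709 to 1080 in BRCA1+/-. Their sum was 38.3 to 87.9 and 293 to 515 in treated wild type at 1 and 3 weeks, with 5 and 2 markers lower and 1, Cubn, higher at 3 weeks. In BRCA1+/- it was 125 to 328 and 179 to 467, with 3 and 2 lower. Erythroid markers were lower too, 6 and 5 of 6 in wild type and 6 and 4 in BRCA1+/-, with sums of 361 to 2360 and 2170 to 2980 in the controls and of 66.1 to 673 over the treated arrays. Of 3 smooth muscle markers, 3 and 1 were higher in wild type at 1 and 3 weeks and 0 and 0 in BRCA1+/-. Their sum was 7.24 to 13.2 and 2.29 to 5.57 against 1.21 to 2.12 in wild-type controls, and 2.79 to 7.09 and 3.66 to 6.65 against 2.25 to 3.95 in BRCA1+/-.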

How the data were processed

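RNA of 16 kidney cortex samples was measured on one-colour Agilent arrays. The deposited intensity values are processed spot signals, background-subtracted by Agilent Feature Extraction 10.7 per the file headers and the submitters' processing notes. A value table deposited by the authors is on the log2 scale. For 45483 probes compared, 99.4% of its values lay within 0.02 of the log2 signal minus each array's 75th percentile, a scale found by that comparison, and it served as an alternative.

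Control spots and outlier spots were left out, spots of a probe were averaged, and log2 processed signals were reduced by each array's 75th percentile. A probe was kept where some group had it well above background on all its arrays (20452 probes), and each gene was represented by its kept probe with the highest mean (16058 genes). Fits used limma 3.58.1 in R 4.3.3 over all 6 groups (10 residual degrees of freedom, 4.87 prior), with Benjamini-Hochberg adjustment over genes and a threshold of 0.05. The fit was tested on simulated data.

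All members and all their probes are described, with the 3 genes of each other list that have the smallest p of the F-test over the 4 comparisons with control, and the 2 genes most correlated with each member tested. Members and lists were chosen with earlier results of these data known. Replicate numbers showed no sign of pairing the samples: same-numbered arrays of different groups correlated at a median of 0.03 in their deviations, and others at -0.02. With 2 or 3 arrays a group, whose deviations cancel within the group, this check cannot exclude pairing. The number of arrays limits the precision, with a median residual SD of 0.395 log2 units. Alternatives were normexp background correction (offset 50), quantile normalization, no filter, dim values at the detection limit, the mean of a gene's probes, slide or replicate number as a block, each slide alone, the compared groups alone, the value table, and each array left out. Promoters were matched to RefSeq by symbol.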

Additional observations from a re-analysis of the deposited data

How the results depend on the processing

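Normexp correction ended some calls that were far from the threshold, such as Egr1, which in wild type went from 2.55 to 0.36 at 1 week (adjusted p = 0.24 in limma). Of the members' log2 differences, leaving out an array left 1277 on the same side of the threshold, took 58 below it and brought 9 past it, and the other settings left 858, took 59 below it, brought 6 past it and reversed 1. A difference not called under either setting counts as on the same side even if its sign turned. The authors' value table changed no member's call. The reversed values were Fosl2 in wild type at 1 week at 1.43 with the mean of its probes, and Batf in wild type at -0.01 at 1 week and -0.02 at 3 weeks with normexp correction and -0.04 at 1 week with dim values at the detection limit. Causes were not tested, except that slides alone and the compared groups alone hold fewer arrays. The main fit's gene counts were 4350 in wild type at 1 week, 2297 at 3 weeks and 1336 between the times, 1200, 2552 and 49 in BRCA1+/-, 90 between genotypes at 1 week, 19 for the difference in time course, and 0 elsewhere.

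With normexp correction, 2 and 3 members were called in wild type at 1 and 3 weeks, 0 in BRCA1+/- at 1 week and 1 between its times; genes called were 1699, 825 and 671 in wild type (1 week, 3 weeks, between times), 437, 1561 and 29 in BRCA1+/-, 2 and 1 between genotypes at 1 and 3 weeks, and 1 each for the response at 3 weeks and the time course. Quantile normalization gave 20 genes between times in BRCA1+/- and 6 for the time course. Without the filter, 3 members were called in wild type at 3 weeks and 1 in BRCA1+/- at 1 week, with 2661, 974 and 472 genes in wild type, 450, 1070 and 12 in BRCA1+/-, 1 between genotypes at 1 week and 0 for the time course. With dim values at the limit, 1 member (Egr1) and 75 genes were called between times in BRCA1+/-, 1 gene between genotypes at 3 weeks and 45 for the time course. The mean of probes called 1 member between times in BRCA1+/- (Jun, 1.34) and 1 between genotypes at 1 week (Klf6).

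Slide as a block gave 2 members in BRCA1+/- at 1 week, 34 genes between genotypes at 1 week and 6 for the time course. Within slide 1, members called were 0, 0 and 0 in wild type and 0 and 3 in BRCA1+/- at 1 and 3 weeks; genes were 215, 3 and 0, then 28, 277 and 0, and 0 between genotypes at 1 week and for the time course. Within slide 2, members were 3 and 1 in wild type and 1 and 1 in BRCA1+/-; genes were 1080, 301 and 130, then 125, 252 and 2, with 0 and 2 between genotypes at 1 and 3 weeks and 1 each for the 3-week response and the time course. With the replicate number as a block, 1 member was called between times in BRCA1+/- (Egr1, 1.85, adjusted p = 0.035 in limma), with 83 genes there and 4 for the time course. Fitting the compared groups alone called 1 member in BRCA1+/- at 1 week, with 1758, 3725 and 459 genes in wild type, 3891 and 25 in BRCA1+/- at 3 weeks and between times, 0 between genotypes at 1 week and 1 for the time course.

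Leaving out each array in turn, members called ranged from 4 to 6 in wild type at 1 week, 2 to 6 at 3 weeks and 1 to 3 between times, and from 1 to 4, 3 to 5 and 0 to 2 in BRCA1+/-. Genes ranged from 2354 to 5370, 778 to 3895 and 604 to 1989 in wild type, and 367 to 2315, 816 to 4747 and 15 to 218 in BRCA1+/-. Between genotypes they ranged from 0 to 2 in controls, 1 to 151 at 1 week and 0 to 1 at 3 weeks, and for the responses from 0 to 6 at 1 week and 0 to 93 for the time course.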
